A study of Caenorhabditis elegans with 6 samples.

Results

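S-adenosylmethionine is the methyl donor of most methylation reactions in a cell, and in Caenorhabditis elegans a large part of it is spent on phosphatidylcholine. S-adenosylmethionine synthetases (sams genes) make it from methionine and ATP, the phosphoethanolamine methyltransferases PMT-1 and PMT-2 use it to turn phosphoethanolamine into phosphocholine, S-adenosylhomocysteine hydrolase (AHCY-1) clears the product that is left, and the vitamin B12-dependent methionine synthase (METR-1) regenerates methionine. In worms, loss of sams-1 is known to lower phosphatidylcholine and to activate lipid synthesis through the transcription factor SBP-1. The 8 genes sams-1, sams-3, sams-4, sams-5, metr-1, ahcy-1, pmt-1 and pmt-2 were picked by their role, by matching the sequence name of each array spot to its current symbol. They are 8 of 18889 genes on the array, read by 18 of 22490 gene probes, and 6 of them were among the 7989 genes that could be tested.

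RNA of wild-type N2 worms was compared on 6 two-colour arrays. Treated worms grew on agar with OP50 bacteria and a low dose mixture (LDM) of the organophosphorus pesticides chlorpyrifos (CPF) and diazinon (DZN), which the labels give as 0.5 mg/ml and 1 mg/ml while the methods give the same numbers per litre. Control worms received the acetone solvent alone. Both groups were collected after 72 h at 16 °C, with 4 dishes pooled into a sample. The methods give their stage as L3/L4 larvae. LDM RNA was labelled with Cy5 and control RNA with Cy3 on 3 arrays (LDM in Cy5 replicates 1 to 3), and the dyes were exchanged on the other 3 (LDM in Cy3 replicates 1 to 3). The methods call the 6 arrays independent biological replicates, but the scanner headers of LDM in Cy5 replicate 3 and LDM in Cy3 replicate 1 give the same number for the control extract, so these arrays may share one. Values are log2 ratios of LDM over control, positive where the LDM channel was brighter after normalization. In whole worms, less RNA per cell and fewer cells of a type cannot be told apart.

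The image software left 37.6 to 41.9% of gene spots unmarked where LDM RNA carried Cy5, and 56.5 to 61.4% where it carried Cy3. The labels give replicates 2 and 3 of LDM in Cy5 the same dyes, yet their ratios were inversely correlated (r = -0.38 over the tested genes, -0.23 over all gene probes). Markers of stage and tissue also varied between arrays, to different extents. Of 6 genes on the array for yolk of the adult intestine, 5 were tested. Their median ratio lay between -2.93 on LDM in Cy3 replicate 1 and 2.44 on LDM in Cy3 replicate 3. Summed intensities were 7626 to 164897 in control and 3267 to 64498 in LDM channels. For major sperm protein genes, 13 of 15 tested, the median was -1.20 (LDM in Cy5 replicate 3) to 0.80 (LDM in Cy3 replicate 3). Their sums were 202103 to 639110 and 145657 to 535764. Intestinal markers, 7 of 7 tested, stayed between -0.12 and 0.26, with sums of 156305 to 338420 and 156363 to 258741. The median of 3 body wall muscle genes, all tested, was -0.74 for LDM in Cy5 replicate 3, 0.47 for LDM in Cy5 replicate 2 and -0.19 to 0.09 elsewhere, with sums of 35775 to 118062 and 28063 to 86097. For oocyte and eggshell genes, 2 of 9 tested, it was -1.15, 0.64 and 0.02 to 0.17, with sums of 3436 to 27462 and 2511 to 18316. Of 3 adult cuticle markers 1 was on the array, with intensities of 420 to 6893 and 214 to 4558, and it was not tested. By limma 0 markers of any of these lists passed, and their part in the members' ratios was not tested.

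None of the 6 tested members passed the test. By limma (Benjamini-Hochberg adjusted p under 0.05 over all genes) 0 of 6 were called, beside 25 genes higher and 5 lower among all 7989 (0.376%). At an unadjusted p under 0.05, 1 of 6 was called, pmt-1, beside 9.31% of all genes. By rank product 0 of 6 were called, beside 1.73% of all genes. The median log2 ratio of the 6 members was -0.01 (from -0.30 for sams-4 to 0.34 for pmt-1), against -0.03 over all genes tested. Of the 6 members, 0 had a ratio of the same sign on all 6 arrays, which 5.67% of the genes measured on all arrays had. The dye effect was called for 0 of 6, beside 0.025% of all genes.

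**Figure D1:**
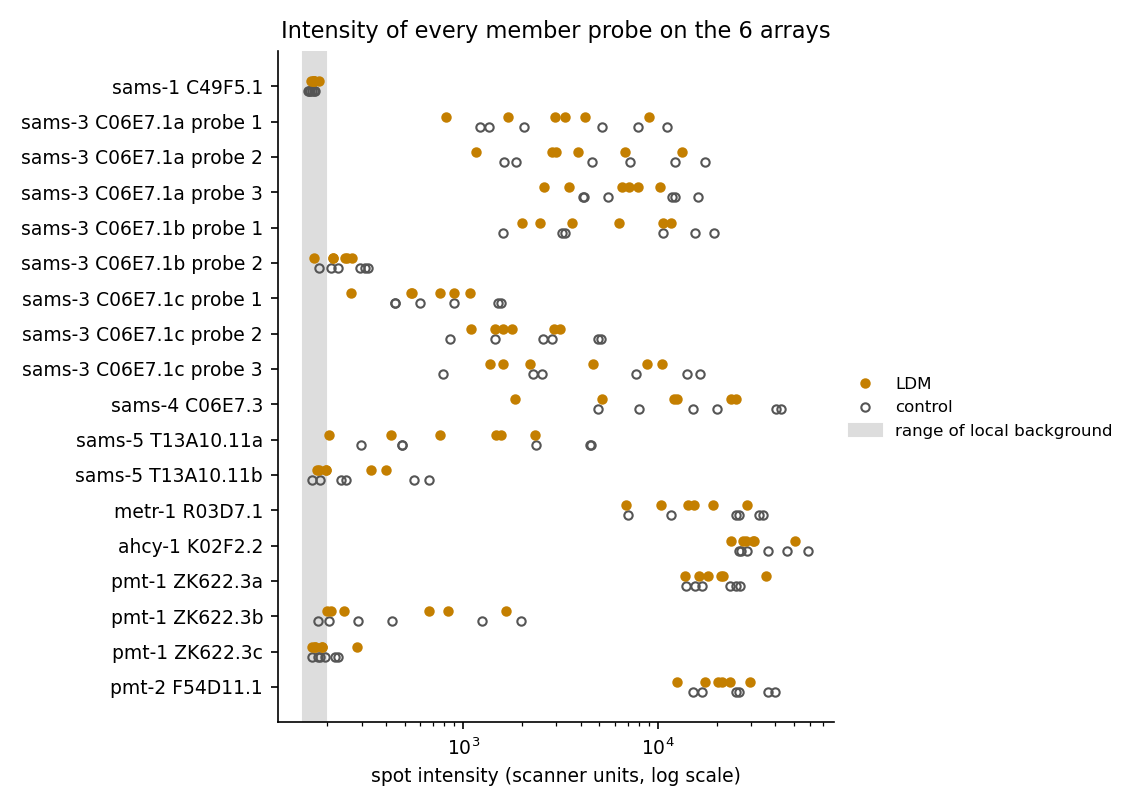
Mean foreground intensity of every spot of the 8 members, with 1 row a probe. Filled points are LDM channels, open points control channels of the 6 arrays, and the grey band is the range of local background. The sams-1 probe lies at background, at 159 to 181, and pmt-1 ZK622.3c near it, at 167 to 285, while ahcy-1 lies between 23596 and 59106.

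The S-adenosylmethionine synthetases could be read to very different extents. For sams-1 (C49F5.1), the enzyme most studied in worm lipid metabolism, the array carries 1 probe, and it was not well above background in either channel on any of the 6 arrays. Its LDM intensities were 172, 166 and 169 with LDM in Cy5 and 171, 181 and 172 with LDM in Cy3, where the local background was 155 to 159. Control intensities were 161, 159 and 163, then 173, 168 and 171. The image software marked all 6 spots, so no ratio of sams-1 was measured.

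For sams-5 (T13A10.11) 2 probes were present and neither could be tested. Probe T13A10.11a was unmarked on 4 arrays, with log2 ratios of 0.11 on LDM in Cy5 replicate 2 and of -0.82, -0.51 and -0.03 on LDM in Cy3 replicates 1 to 3. Over the LDM in Cy3 arrays it averaged -0.45 ± 0.40 (SD, n = 3), so the spread was close to the mean. On LDM in Cy3 replicates 1 and 2 the LDM channel read 1569 and 2322 against 4487 and 4525 in the control channel, before normalization. The marked spots of this probe, on LDM in Cy5 replicates 1 and 3, read 204 to 485. Probe T13A10.11b was unmarked only on LDM in Cy3 replicates 1 and 2, with ratios of -0.37 and 0.02.

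sams-4 (C06E7.3) had the lowest ratio among the tested members. Its log2 ratios were -0.74, 0.09 and -0.89 with LDM in Cy5 and -0.11, -0.17 and 0.01 with LDM in Cy3, below 0 on 4 of 6 arrays. LDM in Cy5 replicates 1 and 3 lay far below the other 4 arrays, which were within 0.17 of 0. The means by orientation were -0.52 ± 0.53 (SD, n = 3) with LDM in Cy5 and -0.09 ± 0.09 (SD, n = 3) with LDM in Cy3. The fitted log2 ratio was -0.30 (standard error 0.16, 95% interval -0.67 to 0.06), which is 0.81 times the control level and did not pass (limma adjusted p = 0.608).

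sams-3 (C06E7.1) is the neighbour of sams-4, with 0 protein-coding genes between them in the RefSeq gene table. It has 8 probes named for transcripts a, b and c, of which 7 could be tested; the remaining one, C06E7.1b probe 2, was marked on all 6 arrays at intensities of 171 to 322. The probe with the highest mean intensity, C06E7.1a probe 3, had ratios of 0.44, 0.53 and -0.29 with LDM in Cy5 and of -0.07, -0.17 and -0.15 with LDM in Cy3. It was thus above 0 on 2 of 6 arrays, and all 3 arrays with LDM in Cy3 were below 0. The fit gave 0.05 (standard error 0.14, 95% interval -0.29 to 0.39, limma adjusted p = 0.959). In a fit over all 8860 tested probes, the 7 sams-3 probes had ratios of 0.04 to 0.19 with standard errors of 0.12 to 0.15. The highest of them, C06E7.1a probe 1 at 0.19, had an adjusted p of 0.729 by limma.

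**Figure D2:**
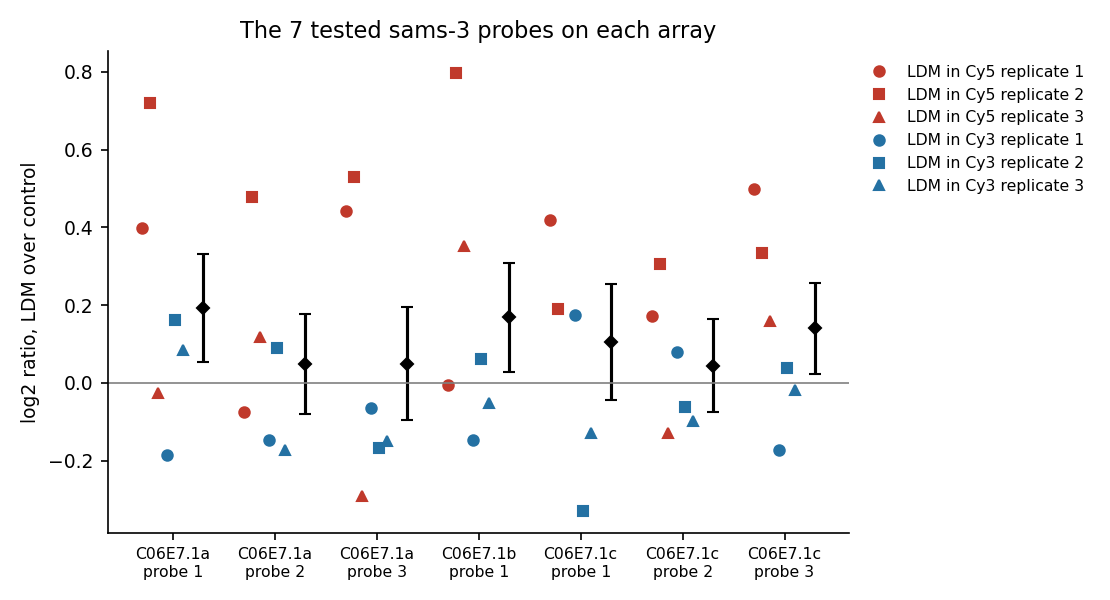
Log2 ratio of LDM over control for each tested sams-3 probe, with 1 point an array (unmarked spots only) and, in black, the fitted ratio ± its standard error from limma. The 7 fitted ratios lie between 0.04 and 0.19, and on LDM in Cy5 replicate 2 every probe is above 0.

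The tested sams-3 probes shared a sign on 1 of 6 arrays. All 7 were above 0 on LDM in Cy5 replicate 2, from 0.19 to 0.80 with a median of 0.48. The median of LDM in Cy5 replicate 1 was 0.40, and that of LDM in Cy5 replicate 3, where 6 were unmarked, was 0.05. On the arrays with LDM in Cy3 the medians were -0.15, 0.04 and -0.10. The 7 probes share their samples and are not replicates. The synthetases are close paralogs, and whether a probe of one sams gene also binds transcripts of another was not analysed here.

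**Figure D3:**
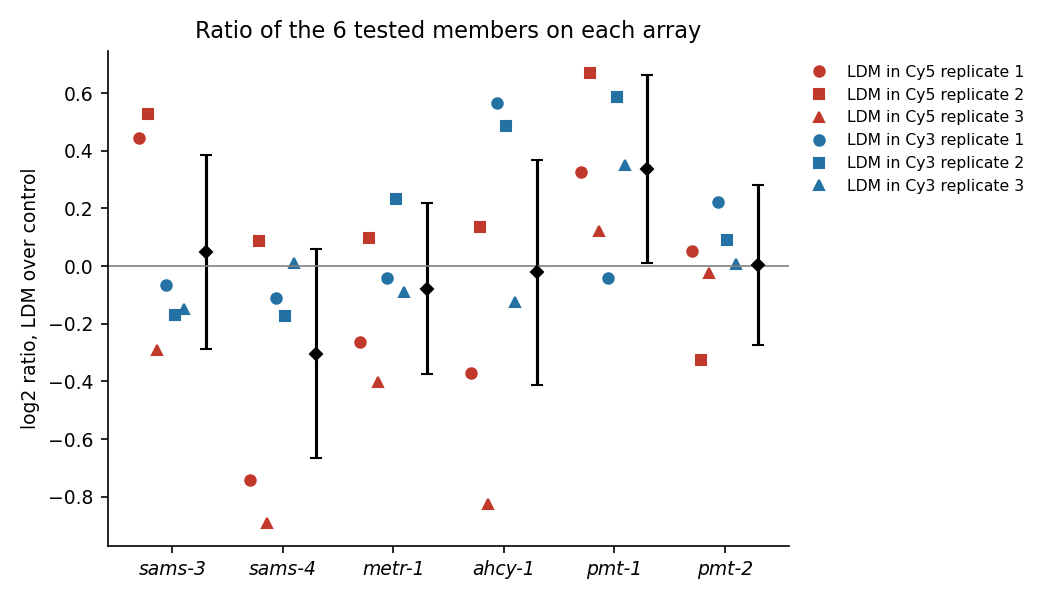
Log2 ratio of LDM over control for each tested member on each of the 6 arrays (colour gives the orientation, shape the replicate), with the fitted ratio and its 95% interval from limma in black. Only the interval of pmt-1, 0.01 to 0.66, leaves out 0, before adjustment over all genes.

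pmt-1 had the highest ratio of the members. Its enzyme adds the first methyl group to phosphoethanolamine. Probe ZK622.3a had log2 ratios of 0.32, 0.67 and 0.12 with LDM in Cy5 and of -0.04, 0.59 and 0.35 with LDM in Cy3. It was above 0 on 5 of 6 arrays, with LDM in Cy3 replicate 1 just below, and both orientations gave similar means of 0.37 ± 0.28 and 0.30 ± 0.32 (SD, n = 3 each). The fitted log2 ratio was 0.34 (standard error 0.14, 95% interval 0.01 to 0.66), or 1.26-fold with an interval of 1.01 to 1.58. That size is at the 84.2nd percentile of all genes tested, and it did not pass adjustment (limma adjusted p = 0.518). By rank product the percentage of false positives of pmt-1, given here and below as a fraction, was 0.712. Leaving out each array in turn gave log2 ratios of 0.26 to 0.42, with adjusted p of at least 0.222.

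The 2 other pmt-1 probes gave little more. ZK622.3b was unmarked only on the arrays with LDM in Cy3, at ratios of -0.59, 0.92 and 1.55, the lowest again on replicate 1; its mean was 0.63 ± 1.10 (SD, n = 3). On the arrays with LDM in Cy5 it read 180 to 287, near background. ZK622.3c was marked on all 6 arrays and above background in 1 channel of 1 array, the control channel of LDM in Cy3 replicate 1.

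pmt-2 (F54D11.1), whose enzyme adds the later methyl groups, was the most even of the members. Its ratios were 0.05, -0.32 and -0.03 with LDM in Cy5 and 0.22, 0.09 and 0.01 with LDM in Cy3. The fit gave 0.00 (standard error 0.12, limma adjusted p = 0.995), with a 95% interval of -0.27 to 0.28, or 0.827 to 1.21 times the control level. LDM in Cy5 replicate 2 was the lowest array for pmt-2 and the highest for pmt-1 and sams-3. The difference between pmt-1 and pmt-2 was not tested.

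metr-1 (R03D7.1) had ratios of -0.26, 0.10 and -0.40 with LDM in Cy5 and of -0.04, 0.23 and -0.09 with LDM in Cy3, above 0 on 2 of 6 arrays. The fitted ratio was -0.08 (standard error 0.13, 95% interval -0.37 to 0.22, limma adjusted p = 0.900).

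ahcy-1 (K02F2.2) varied most among the members, with an SD of 0.53 over the 6 arrays against a median of 0.42 over all genes. Its ratios were -0.37, 0.14 and -0.83 with LDM in Cy5 and 0.56, 0.49 and -0.12 with LDM in Cy3. The orientations averaged -0.35 ± 0.48 and 0.31 ± 0.38 (SD, n = 3 each), and the groups of arrays overlapped; the dye effect was -0.33 (standard error 0.17, limma adjusted p = 0.808). The fitted LDM ratio was -0.02 (standard error 0.17, 95% interval -0.41 to 0.37, adjusted p = 0.987). Its lowest array, LDM in Cy5 replicate 3, had 11.3% of the spot's pixels saturated, taking the more saturated channel, and LDM in Cy5 replicate 2 had 1.60%. On LDM in Cy5 replicate 3 the brighter channel was the control, at 59106 against 31113. The part of saturation in the ratio was not tested. Without LDM in Cy5 replicate 3 the ratio was 0.10.

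On LDM in Cy5 replicate 3 only pmt-1 of the 6 members was above 0 and their median was -0.35. On LDM in Cy5 replicate 2, 5 of 6 were above 0 (median 0.12), and on LDM in Cy3 replicate 2, 4 of 6 (median 0.16). On LDM in Cy5 replicate 1 and LDM in Cy3 replicates 1 and 3, 3, 2 and 3 of 6 were above 0 and the medians were -0.11, -0.04 and -0.04, and the median of all genes stayed between -0.04 and 0.00 on every array. Muscle and oocyte markers had their lowest median on LDM in Cy5 replicate 3 and their highest on LDM in Cy5 replicate 2, and their part in this was not tested.

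The ratios and calls of sams-4 and pmt-1 depended on the processing. With print-tip loess in place of global loess they were closer to 0, at -0.10 (limma adjusted p = 0.887) and 0.21 (adjusted p = 0.748). With limma's array quality weights, where LDM in Cy5 replicates 2 and 3 had weights of 0.272 and 0.205 and the highest weights were 3.62 (LDM in Cy5 replicate 1) and 3.64 (LDM in Cy3 replicate 2), sams-4 was lower (log2 ratio -0.41, adjusted p = 0.0157) and pmt-1 higher (0.36, adjusted p = 0.0416). That fit called 573 genes higher and 835 lower, or 17.6% of all genes tested.

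The genes whose ratios followed each member most closely over the 6 arrays, among 6480 others measured on all arrays, had Pearson r of 0.966 to 0.996. They were otub-1, T23B12.6 and fipp-1 for sams-3, dhc-1, elb-1 and trcs-1 for sams-4, and mec-8, lit-1 and zfp-1 for metr-1. For ahcy-1 they were elpc-1, fust-1 and gsr-1, for pmt-1 scd-1, ets-6 and ant-1.1, and for pmt-2 cutl-28, mrpl-1 and Y38A10A.2. By limma 0 of these 18 genes passed, with adjusted p of 0.317 or more. Picking the highest r among 6480 genes over 6 arrays gives high values by selection alone, so they only describe likeness. Shared regulation was not tested.

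Genes of the pathways around the members were read from 6 lists by name. Tested were 12 folate, 9 transsulfuration, 13 phospholipid, 17 S-adenosylmethionine use, 14 B12 and 7 SBP-1 list genes. By limma 0 genes of any list were called, beside 0.376% of all genes. At an unadjusted p under 0.05, which 9.31% of all genes had, 6 list genes were lower and 1 higher. By rank product 1 gene was called, prmt-4, beside 1.73% of all genes. With array quality weights limma called 13 list genes, beside 17.6% of all genes. These counts were not tested against the shares over all genes.

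**Figure D4:**
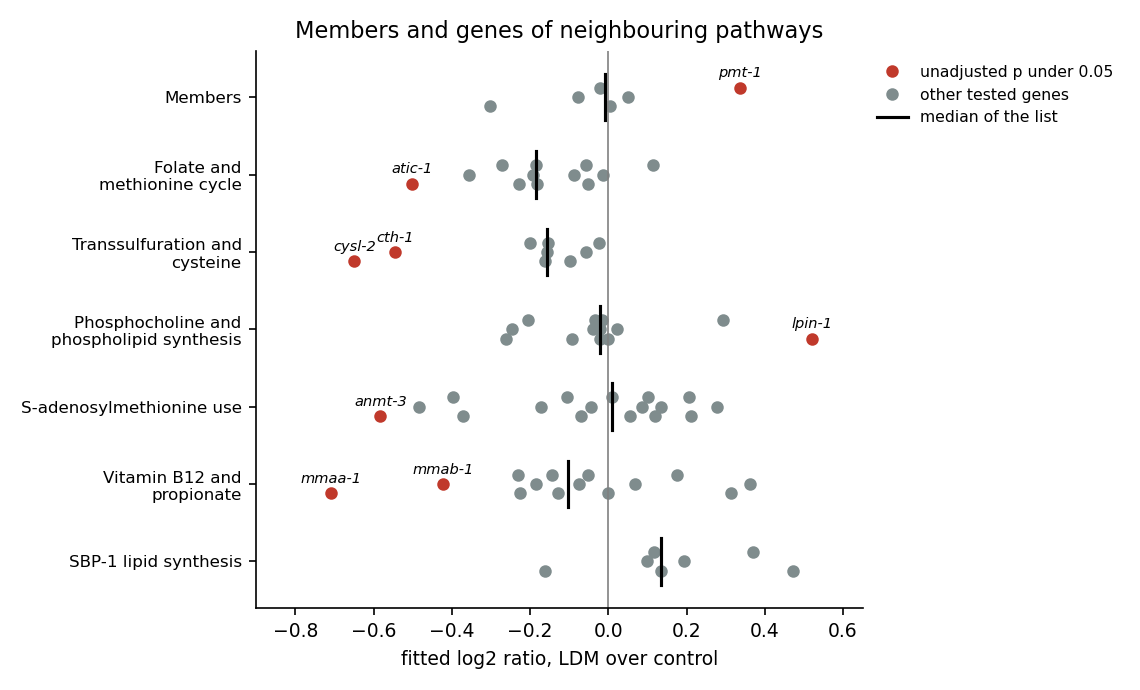
Fitted log2 ratio of LDM over control for the 6 tested members and the tested genes of 6 neighbouring pathway lists, with 1 point a gene (vertical offsets only separate points), the list median as a bar and genes with an unadjusted limma p under 0.05 in red and named. The 9 tested transsulfuration genes lie between -0.65 and -0.02, with a median of -0.16 against -0.03 over all genes tested. The 12 tested folate genes, from -0.50 to 0.12, have a lower median of -0.18.

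Homocysteine, which AHCY-1 releases, either returns to methionine or leaves through transsulfuration to cysteine. Of 11 transsulfuration and cysteine genes 9 were tested, with fitted ratios from -0.65 to -0.02 (median -0.16, against -0.03 over all genes). The 9 genes share their arrays and are not replicates, and gcs-1 and cdo-1 were each above 0 on 4 of 6 arrays. The genes with the smallest p were cysl-2 and cth-1. cysl-2 (K10H10.2), of the cysteine synthase family, had ratios of -0.84, -1.03 and -0.57 with LDM in Cy5 and of -0.04, -0.43 and -0.98 with LDM in Cy3. It was below 0 on 6 of 6 arrays, with a fitted ratio of -0.65 (standard error 0.15, limma adjusted p = 0.226). cth-1 (F22B8.6), a cystathionine gamma-lyase, had ratios of -0.59, -0.63 and -0.73 and of -0.01, -0.67 and -0.64. It was also below 0 on 6 of 6 arrays (fitted -0.55, standard error 0.14, limma adjusted p = 0.249). In both genes LDM in Cy3 replicate 1 lay closest to 0.

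Of 14 folate and methionine cycle genes 12 were tested, with a median of -0.18 and fitted ratios from -0.50 to 0.12. The smallest p were those of atic-1 (C55F2.1), which uses a folate-bound formyl group in purine synthesis, at -0.50 (standard error 0.21, 5 of 6 arrays below 0, limma adjusted p = 0.530), and of gcst-1 (F25B4.1), an aminomethyltransferase of glycine cleavage, at -0.27 (standard error 0.14, 5 of 6 arrays below 0, adjusted p = 0.604). All 14 vitamin B12 and propionate genes were tested, with a median of -0.10. mmaa-1 (T02G5.13) and mmab-1 (C26E6.11), which serve the cobalamin cofactor of methylmalonyl-CoA mutase, had ratios of -0.71 (standard error 0.18, above 0 only on LDM in Cy3 replicate 1, at 0.00, limma adjusted p = 0.250) and -0.42 (standard error 0.15, 6 of 6 arrays below 0, adjusted p = 0.441). acdh-1, a gene of the propionate shunt that dietary vitamin B12 is known to repress, spanned -0.87 (LDM in Cy5 replicate 2) to 1.66 (LDM in Cy5 replicate 3) and had a fitted ratio of 0.31 (standard error 0.34); it was named after its values were seen.

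Of 16 genes of phosphocholine and phospholipid synthesis beside the members 13 were tested, with a median of -0.02. lpin-1 (H37A05.1), the worm lipin, which makes diacylglycerol from phosphatidate, had ratios of 0.75, 1.00 and 0.23 with LDM in Cy5 and of 0.09, 0.32 and 0.74 with LDM in Cy3. It was above 0 on 6 of 6 arrays, with a fitted ratio of 0.52 (standard error 0.15, limma adjusted p = 0.359). By rank product its percentage of false positives, as a fraction, was 0.254. psd-1 (B0361.5), a phosphatidylserine decarboxylase, was above 0 on all 5 of its unmarked arrays, at 0.20 to 0.35 (fitted 0.29, standard error 0.13, limma adjusted p = 0.572). With marked spots kept its ratio was 0.13 (adjusted p = 0.794). The choline kinase genes tested, cka-1, cka-2, ckb-1, ckb-2 and ckb-4, which were also named after their values were seen, had fitted ratios between -0.03 and 0.02.

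Of 10 genes of SBP-1 lipid synthesis 7 were tested, with a median of 0.14 and fitted ratios from -0.16 to 0.47. pod-2 (W09B6.1), acetyl-CoA carboxylase, had 0.47 (standard error 0.21, above 0 on 5 of 6 arrays, limma adjusted p = 0.551) and mdt-15 (R12B2.5), a Mediator subunit that works with SBP-1, 0.37 (standard error 0.17, above 0 on 4 of 6 arrays, adjusted p = 0.574). sbp-1 itself, fat-5 and fat-7 were on the array but not tested.

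Of 25 genes that spend S-adenosylmethionine 17 were tested, with a median of 0.01. anmt-3 (T07C12.9), named as an amine N-methyltransferase, was below 0 on 6 of 6 arrays with a fitted ratio of -0.58 (standard error 0.18, limma adjusted p = 0.370). comt-3 (Y40B10A.2), of the catechol-O-methyltransferase family, had 0.28 (standard error 0.15, above 0 on 4 of 6 arrays, adjusted p = 0.648). prmt-4 (C18H7.9), of the arginine methyltransferase family, was unmarked on 5 arrays. Its ratios were -2.38 and -3.80 for LDM in Cy5 replicates 1 and 2, and 0.63, 2.74 and 3.01 for LDM in Cy3 replicates 1 to 3. The orientations did not overlap and took opposite signs, and rank product called the gene in both directions. As fractions, its percentages of false positives were 0.00581 for higher and 0.0258 for lower. The limma fit with a dye term gave -0.48 (standard error 0.39, adjusted p = 0.781).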

How the data were processed

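The authors hybridised LDM and control RNA to 6 arrays in a dye swap and deposited scanner output with Cy3 and Cy5 intensity and local background for each of 23232 spots, not normalized; the deposited output also gives the percentage of saturated pixels. The authors' deposited table of log2 ratios was normalized with limma (loess, Aquantile; version not given in the sources used here). Its columns follow LDM over control on every array, with medians of -0.0076 to 0.0009, and it served as an alternative.

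Ratios were recomputed with limma 3.58.1 in R 4.3.3 from mean foreground intensities: normexp with offset 50, global loess on unmarked gene spots, Aquantile between arrays. Of 22490 gene probes, 21382 (95.1%) matched the WBcel235 RefSeq gene table by sequence name. The platform table names 5 of the 18 member probes, all with the same gene. Testing needed 2 or more unmarked spots per orientation, met by 8860 probes, and the brightest stood for its gene. limma fitted an LDM and a dye effect; adjusted p-values are Benjamini-Hochberg over 7989 genes. The rank product was written anew (100 permutations, percentage of false positives, as a fraction, under 0.05). Both were tested on simulated data. Above background means by more than 2 background SD. The number of arrays limits the precision.

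Members and lists were chosen with earlier results of these data known. Named are all members, list genes called by either tool or with the 2 smallest p, and 3 genes most alike per member, beside the few said to be named after their values were seen. Alternatives were background correction (none, offset 16), print-tip loess, median centring, array weights, a replicate block, dim probes removed, inclusion of marked spots, omission of the dye term, the authors' ratios, the mean over probes, and each array left out; the median of a spot's pixels and a fit over all probes were added after seeing the data.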

Additional observations from a re-analysis of the deposited data

Results flagged for a closer look

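The ratio of cth-1 on LDM in Cy3 replicate 1 (-0.01) stood apart from the other 5 arrays (-0.73 to -0.59). The gap is 0.815 of the whole range, and chance alone sets about 5% of such groups apart; 19 genes were examined. The ratio of prmt-4 differed between the orientations, with a mean of -3.09 on 2 arrays with LDM in Cy5 and of 2.12 on 3 arrays with LDM in Cy3, a difference of -5.22. The dye effect that tests this difference did not pass in limma (adjusted p = 0.485).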

How the results depend on the processing

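In 11 of 12 alternatives, and with any array left out, limma called 0 members, and rank product, where it was run, called 0. With array quality weights limma called 2 members, 573 genes higher, 835 lower and 879 for the dye effect, and 1, 2, 4, 3, 2 and 1 genes of the folate, transsulfuration, phospholipid, S-adenosylmethionine use, B12 and SBP-1 lists. The cause was not tested. With print-tip loess limma called 3 genes lower. Keeping marked spots also gave 3, and rank product then called 177 higher and 63 lower over more genes. The dye effect was called for 0 genes with the authors' ratios, 0 with marked spots kept and 1 with the replicate block.

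Print-tip loess gave -0.10 for sams-4 and 0.21 for pmt-1, against -0.30 and 0.34 in the main fit. For sams-3, metr-1, ahcy-1 and pmt-2 it gave 0.0085, -0.0015, -0.054 and 0.020, against 0.049, -0.078, -0.022 and 0.0035. For mdt-15 it gave 0.23, against 0.37. Among the 6 members only the shift of sams-4 was larger than the standard error of the main fit. With marked spots kept psd-1 was 0.13 and prmt-4 -0.074. The fitted sign turned for 4 genes, none of them past the threshold in either fit. sams-3 was -0.028 with median centring and -0.0062 with the authors' ratios. ahcy-1 was 0.22 with median centring, 0.069 with the authors' ratios, 0.063 with marked spots kept and 0.031 with array weights. pmt-2 was -0.041 with the median of a spot's pixels, and prmt-4 0.037 without the dye term.

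With arrays left out in turn, limma called 5 to 43 genes higher, 0 to 16 lower and 0 to 2 for the dye effect, and rank product 57 to 90 higher and 21 to 33 lower. Leaving out LDM in Cy5 replicates 1, 2 or 3 gave 5, 43 or 25 higher and 0, 8 or 16 lower by limma. Leaving out LDM in Cy3 replicates 1, 2 or 3 gave 6, 5 or 7 higher and 1 lower each time. By rank product 63 were higher when LDM in Cy5 replicate 1 was left out, 62 higher and 21 lower when LDM in Cy3 replicate 2 was, and 57 higher when LDM in Cy3 replicate 3 was. The ratio ran from -0.026 to 0.18 for sams-3, from -0.14 to 0.096 for ahcy-1 and from -0.034 to 0.060 for pmt-2. It ran from -0.15 to -0.025 for metr-1 (without LDM in Cy5 replicates 2 and 3), and was 0.28 for pod-2 and 0.24 for mdt-15 without LDM in Cy5 replicate 2, -0.18 for gcst-1 without LDM in Cy5 replicate 3, and 0.17 for comt-3 and -0.11 for prmt-4 without LDM in Cy3 replicate 1.

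The labels number the arrays 1 to 3 in both orientations without naming a shared source. For that reason the main fit did not take the numbers as pairs. Deviations from the orientation's mean correlated at -0.03, 0.41 and 0.23 for same-numbered arrays 1, 2 and 3. For differently numbered arrays they correlated at -0.41 to 0.035. Whether same-numbered arrays share a source was not tested. With the replicate block limma called 26 genes higher and 4 lower and 0 members. The dim probe filter removed no tested gene. sams-1 is limited by signal over background, and sams-5 by the marking of its spots. Probe T13A10.11a of sams-5 was above background in 5 LDM and 6 control channels but unmarked on only 4 arrays. Its probe T13A10.11b was above background in 2 LDM and 4 control channels and unmarked on 2 arrays.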
